A study of Caenorhabditis elegans with 2 samples.

Results

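The genes described here are the 33 of 19985 protein-coding genes of Caenorhabditis elegans that encode subunits of the proteasome. They were chosen by symbol in the Ensembl annotation, release 115: every protein-coding gene whose symbol starts with pas-, pbs-, rpt- or rpn-. By that rule 14 genes belong to the core particle (7 pas and 7 pbs genes) and 19 to the regulatory particle (6 rpt and 13 rpn genes). The question asked of them was whether the ETS-domain transcription factor ETS-7 was found at their promoters in the early embryo, and whether core and regulatory genes differed.

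Chromatin immunoprecipitation with sequencing (ChIP-seq), which maps the DNA that a protein occupies, was performed with an anti-GFP antibody on whole early embryos of strain OP487. The worms of this transgenic line are hermaphrodites that stably express ETS-7 with a GFP-FLAG tag at its C terminus, and embryos were taken 3 hours after synchronization by egg bleaching. There is 1 group of 2 biological replicates, numbered 3 and 4. No other strain or stage was analysed here, so genes are compared within this group. The embryos were profiled whole, so binding in fewer cells and weaker binding per cell cannot be told apart.

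The proteasome degrades proteins that carry ubiquitin chains. Its core particle is a barrel of stacked rings, in which alpha subunits (pas genes) form the outer, gated rings and beta subunits (pbs genes) form the inner rings that hold the catalytic sites. The regulatory particle caps the barrel: an ATPase ring (rpt genes) unfolds the substrate and threads it into the core, scaffold and receptor subunits bind ubiquitin, and a lid removes the ubiquitin chain. In C. elegans, the SKN-1A isoform of the transcription factor SKN-1 is known to raise the expression of proteasome subunit genes when proteasome function is impaired.

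For each gene the region of highest signal was taken among those whose summit lay from 1000 bp upstream to 200 bp downstream of any annotated transcript 5' end. The signal is the authors' own value for a region, which has no stated scale. The pooled list of regions, called on both replicates together, holds 11626 regions with signals of 27.5 to 941 and a median of 34.9. By the authors' description, the pooled and replicate lists are input for the IDR step, which compares the ranks of regions between replicates. They hold background as well as peaks. A region in them is therefore a candidate, and only the optimal list holds regions that passed that step. It keeps 595 of the pooled regions, with signals of 80.7 or more. Down to rank 582, that of pbs-3, its ranks equal those of the pooled list, so it holds the highest pooled regions. A place in it does not mean that a region ranked alike in the replicates: rpn-7 ranked 1004 in replicate 3 and 118 in replicate 4. The list of replicate 3 holds 16227 regions (lowest signal 14.7, median 18.9), and that of replicate 4 holds 15533 (lowest 12.9, median 16.7). A pooled signal and a replicate's signal are not on the same level, and each is read within its own list. Whether replicates 3 and 4 share a scale is not stated, so a ratio between them is read only beside the ratios of other genes. Positions of summits are given relative to the nearest 5' end of the gene, with negative values upstream.

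ETS-7 regions were listed at some proteasome promoters and not at others, and few of those listed were among the strongest of the genome. Of the 33 genes, 12 (36.4%) had a pooled region, against 21.6% of all protein-coding genes. Regions of the optimal list stood at 2 members (6.06%), rpn-7 and pbs-3, against 2.07% of all genes. The median pooled signal of the 12 members was 41.3, against 38.1 for the 4310 genes with a pooled region. The lists of the replicates gave 13 members (39.4%) in replicate 3, against 26.4% of all genes, and 20 members (60.6%) in replicate 4, against 26.3%. A region in both replicate lists was found at 8 members (24.2%), against 15.4% of all genes. A further 12 members (36.4%) had a region in replicate 4 and none in replicate 3, against 10.9% of all genes, whereas 5 (15.2%) had one in replicate 3 and none in replicate 4, against 11% of all genes. No list held a region at 8 members (24.2%), against 62.3% of all genes. These shares describe the lists: genes are not replicates, no control list was analysed, and whether the genes of the proteasome differ from other genes was not tested.

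**Figure D1:**
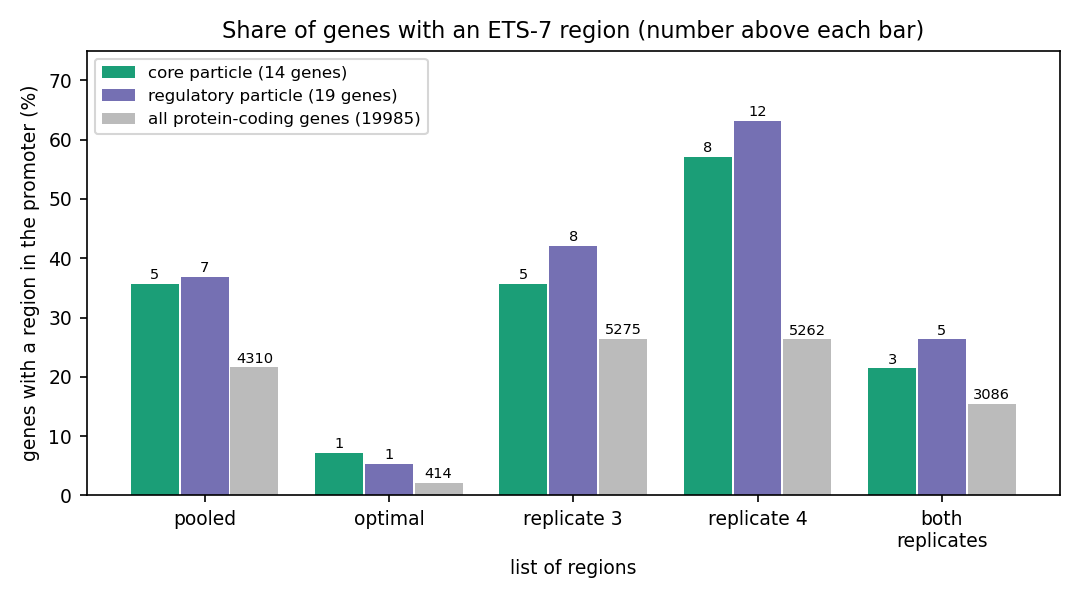
Percentage of genes with an ETS-7 region in the promoter (vertical axis) in each list of regions (horizontal axis), for core particle genes, regulatory particle genes and all protein-coding genes, with the number of genes above each bar. Core and regulatory shares lie side by side in every list, and the distance from all genes is greatest in replicate 4 (57.1% of core and 63.2% of regulatory genes, against 26.3%).

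Among the alpha ring genes, 3 of 7 had a pooled region and 6 of 7 had a region in replicate 4, but only 2 of 7 had one in replicate 3. The shares of all genes in these lists were 21.6%, 26.3% and 26.4%. The strongest was at pas-5 (WBGene00003926, I:10566350-10567300, plus strand), with a signal of 26.6 in replicate 3, 38.5 in replicate 4 and 68.3 in the pooled list. Its summit lay far upstream, at -967, inside the small nucleolar RNA gene F25H2.15, and the replicates' summits stood 24 bp apart. This was the only member with a small RNA gene (tRNA, snoRNA, snRNA, miRNA or rRNA) within 500 bp of its pooled summit. Whether that gene bears on the signal was not tested. At pas-3 (WBGene00003924, I:5105110-5106048, minus strand) the signal was 31.1 in replicate 4 and 50.2 in the pooled list, with no region in replicate 3. The pooled summit at -114 was nearer to the 5' end of use-1, 42 bp away, so the region can be assigned to either gene. pas-4 (WBGene00003925) had a pooled signal of 28.3 at -119, close to the lowest in the list, with 14.9 in replicate 4 and no region in replicate 3. The region also lies in the promoter window of rpb-3, which encodes a subunit of RNA polymerase II.

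The other alpha ring genes had regions in replicate lists alone. pas-1 had a signal of 18.3 in replicate 3 and 19.2 in replicate 4, but the summits, at +154 and -782, were 936 bp apart and the regions did not overlap. pas-2 had a signal of 15.3 at -206 and pas-6 one of 20.6 at -365, both in replicate 4. pas-7 had no region in any list. Among alpha ring genes, 4 of 7 had a region in replicate 4 and none in replicate 3, against 10.9% of all genes. The reverse held at 0 of 7, against 11% of all genes. This tilt is not particular to the alpha ring: in the ATPase ring the counts were 4 of 6 and 0 of 6. Among scaffold and receptor genes of the base they were 2 of 4 and 1 of 4. The beta ring (1 of 7 and 2 of 7) and the lid (1 of 9 and 2 of 9) did not show it.

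Of the beta ring genes, 2 of 7 had a pooled region, 3 of 7 a region in replicate 3 and 2 of 7 a region in replicate 4. For all genes these shares were 21.6%, 26.4% and 26.3%. pbs-3 (WBGene00003949, II:4954480-4955427, minus strand), which encodes a non-catalytic beta subunit, had a signal of 43.1 in replicate 3, 39.2 in replicate 4 and 81.4 in the pooled list. The replicates lay close together there (log2 of replicate 3 over replicate 4 of 0.14). Its region, II:4955407-4955886, passed into the optimal list by a small margin, since the lowest signal of that list is 80.7. The pooled summit at -220 falls in the 3' UTR of the neighbouring gene ulp-2, which encodes a SUMO protease, and pbs-3 has the nearest 5' end. A weaker pooled region of signal 41.7 stood further upstream at -430, with signals of 27 at -382 in replicate 3 and 18.2 at -430 in replicate 4.

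pbs-5 (WBGene00003951, I:14719167-14720477, minus strand) encodes the subunit with chymotrypsin-like activity. It had a weak pooled region (28.7, at -332, in a coding exon of K05C4.2) with 19.9 in replicate 3 and none in replicate 4. A much stronger optimal region, with a signal of 152 and rank 129 of 11626, has its summit at -1173 in an intron of K05C4.2, outside the promoter window. pbs-1, which encodes the caspase-like subunit, had no region in any list within the window, while an optimal region of signal 100.4 stood at -1645 in a coding exon of rpi-2. pbs-2, the trypsin-like subunit gene, had within the window a signal of 17.6 at +173 in replicate 3 alone. pbs-4 had within the window a signal of 15 at +181 in replicate 4 alone. Just beyond the window, each of these genes had a pooled region with its summit in the gene's own coding exon. The signals were 33.2 at +266 for pbs-2 and 33.6 at +226 for pbs-4. pbs-6 and pbs-7 had no region in any list. All 3 genes of catalytic subunits were thus without an optimal region in the window, where 2.07% of all genes had one. With a window of 2000 bp upstream to 500 bp downstream, 2 of them had one, against 2.87% of all genes. Both of these regions lie within other genes, and which gene they belong to was not tested. K05C4.2 had promoter signals of its own of 78.1 in replicate 3 and 76.7 in replicate 4. A count over 3 genes, set apart with the regions known, is not a result about catalytic subunits.

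All 6 ATPase ring genes had a region in replicate 4, against 26.3% of all genes. Their signals ran from 13.1 to 19.2 with a median of 16.7, equal to the median of all regions in that list. Taken in the same way, as the highest region of each promoter, the median of all genes with a region in replicate 4 was 18.5. Replicate 3 held regions at 2 of the 6, and the pooled list at the same 2, rpt-1 and rpt-2. rpt-1 (WBGene00004501, V:11980534-11982397, minus strand) had 18.9 at -785 in replicate 3, 19.2 at -109 in replicate 4 and 32.3 at -99 in the pooled list. The replicates' highest regions there were 676 bp apart, and a second region of replicate 3, with a signal of 14.7 at -97, is the one that meets the pooled region. rpt-2 (WBGene00004502, V:6016059-6017669, minus strand) had 16.1 at -292 in replicate 3, 14.3 at +6 in replicate 4 and 28.4 at -14 in the pooled list. The replicates' summits were 298 bp apart, and the pooled region ranked 10583 of 11626. It is shared with the window of aps-1, which encodes a subunit of a clathrin adaptor. The remaining ATPase genes had a region in replicate 4 alone: rpt-3 at 16.1, rpt-4 at 17.6, rpt-5 at 17.3 and rpt-6 at 13.1. Their summits lay between -239 and -53 of the nearest 5' end of the gene, so all 4 were upstream of that end. At rpt-4, which has 2 annotated 5' ends, that end is internal, and the summit at II:43881 lies within the gene (II:42207-46216).

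Of the scaffold and ubiquitin receptor genes of the base, 1 of 4 had a pooled region (25%, against 21.6% of all genes). rpn-1 (WBGene00004458, IV:6906420-6909913, minus strand), which encodes a scaffold that docks ubiquitin receptors, had 18.3 in replicate 4 and 32.5 in the pooled list, with no region in replicate 3. The summit at -559 lies 211 bp from the 5' end of ribo-1, a gene of N-glycosylation, which is the nearer gene. rpn-2, the other scaffold gene, had a signal of 25.2 at +40 in replicate 3 (rank 3097) and none in replicate 4 or the pooled list. The receptor gene rpn-13 had 15.4 at -256 in replicate 4 alone, and the receptor gene rpn-10 had no region in any list.

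The lid genes held the strongest regions of the regulatory particle: 4 of 9 had a pooled region (44.4%, against 21.6% of all genes), with signals from 28.7 to 121 and a median of 59.8. The stretches of genome around the summits at rpn-7, rpn-9 and rpn-11, the 3 lid genes with a region in both replicates, are shown because they hold the highest pooled signals of the regulatory particle. They are given 5' to 3' on the plus strand of WBcel235 from the NCBI RefSeq genome, within 100 bp of the pooled summit and trimmed where an exon begins, with the letters GGAA, the core that ETS domains recognise, or TTCC, its reverse complement, in capitals. The first is IV:9316216-9316355, the second II:11239140-11239340 and the third II:4044547-4044653.
rpn-7: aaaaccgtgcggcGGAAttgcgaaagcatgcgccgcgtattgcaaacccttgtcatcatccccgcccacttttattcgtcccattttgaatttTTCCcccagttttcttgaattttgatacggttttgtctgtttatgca
rpn-9: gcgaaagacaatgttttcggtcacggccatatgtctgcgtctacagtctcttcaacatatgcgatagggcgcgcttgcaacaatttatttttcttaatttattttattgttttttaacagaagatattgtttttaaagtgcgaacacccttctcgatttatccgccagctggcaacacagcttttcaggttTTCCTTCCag
rpn-11: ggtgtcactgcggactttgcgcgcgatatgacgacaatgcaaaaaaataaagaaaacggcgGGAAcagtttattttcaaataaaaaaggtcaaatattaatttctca

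rpn-7 (WBGene00004463, IV:9316631-9318632, plus strand), which encodes a lid subunit, had a signal of 35.5 in replicate 3, 80.7 in replicate 4 and 121 in the pooled list, where it ranked 217 of 11626 regions. It was the highest member in the pooled list and in replicate 4, but not in replicate 3, where pbs-3 was higher. The deposited signal was 2.28 times as high in replicate 4 (log2 of replicate 3 over replicate 4 of -1.19). Among 411 genes with an optimal region and a region in both replicates, the median log2 ratio was 0.0, and 5 (1.22%) had a lower one than rpn-7. The position was steadier than the height: the summits stood at -361, -385 and -376 in replicate 3, replicate 4 and the pooled list. A second pooled region of signal 53.4 at -169 had 27.6 in replicate 3 and 21.6 in replicate 4. The main summit lies 40 bp from the 5' end of F49C12.9, which runs the other way, so the optimal region IV:9316015-9316494 is shared between the genes and is nearer to F49C12.9. Of the 2 matches to GGAA in the stretch shown above, the nearest is centred 24 bp from the summit.

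rpn-9 (WBGene00004465, II:11237447-11238919, minus strand), which encodes another lid subunit, had nearly the same signal in replicate 3 (34.9) and replicate 4 (34.6), and 61.1 in the pooled list. The log2 ratio of the replicates was 0.01, while their summits, at -215 and -360, were 145 bp apart. The region II:11239000-11239479 also lies in the promoter window of T06D8.9, and rpn-9 has the nearer 5' end. The nearest GGAA in the stretch above is 93 bp from the summit. rpn-11 (WBGene00004467, II:4043055-4044546, minus strand) encodes the deubiquitinase of the lid, and had 24.5 in replicate 3, 32.3 in replicate 4 and 58.5 in the pooled list (log2 ratio of -0.40). Its pooled summit, at -7, lies almost at the 5' end, and its GGAA lies 57 bp away. The replicate 3 summit stood 163 bp from that of replicate 4, and a second pooled region of signal 38.4 stood at -211.

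The other lid genes had a region in 1 replicate list or in none. rpn-3 (WBGene00004460, III:8447353-8449346, plus strand) had 22.5 in replicate 4 (rank 3189 of 15533) and 28.7 at -202 in the pooled list (rank 10237 of 11626), with no region in replicate 3. That region is shared with hsp-110, which encodes a chaperone of the Hsp110 family. rpn-6.1 had 15.3 at -483 and rpn-8, which encodes the partner of RPN-11, had 14.7 at -879, both in replicate 3 alone and close to the lowest signal of that list. The rpn-6.1 summit, III:6961423, lies within the gene (III:6959110-6962001), upstream of the nearer of its 2 annotated 5' ends. rpn-5, rpn-12 and rpn-6.2, a paralogue of rpn-6.1, had no region in any list.

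**Figure D2:**
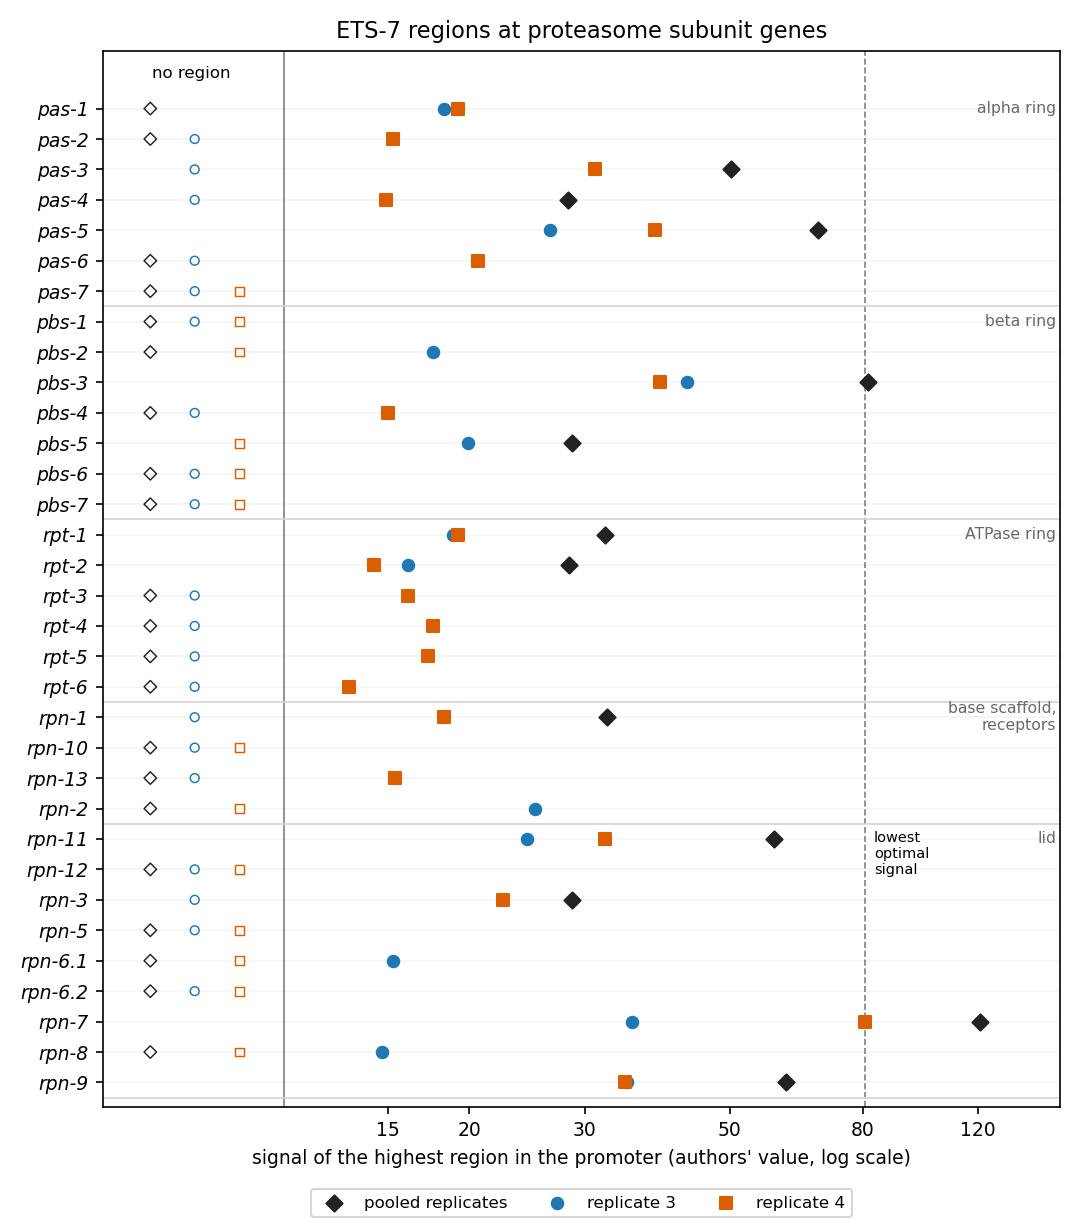
Signal of the highest promoter region (horizontal axis, authors' value, log scale) of each of the 33 proteasome genes (vertical axis, by subcomplex) in the pooled list, replicate 3 and replicate 4, with open symbols where a list holds no region and a dashed line at the lowest signal of the optimal list (80.7). The pooled symbols of rpn-7 (121) and pbs-3 (81.4) lie right of the line, and the 6 ATPase ring genes all have a filled symbol for replicate 4, between 13.1 and 19.2.

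Core and regulatory genes had regions at similar shares in every list. A pooled region was found at 5 of 14 core genes (35.7%) and 7 of 19 regulatory genes (36.8%), and an optimal region at 1 gene of each particle. In replicate 3 the shares were 5 of 14 core genes (35.7%) and 8 of 19 regulatory genes (42.1%). In replicate 4 they were 8 of 14 (57.1%) and 12 of 19 (63.2%), in the same order. Both replicates held a region at 3 core genes (21.4%) and 5 regulatory genes (26.3%). A region in replicate 4 and none in replicate 3 was found at 5 core genes (35.7%) and 7 regulatory genes (36.8%), against 10.9% of all genes. The reverse held at 2 core genes (14.3%) and 3 regulatory genes (15.8%), against 11% of all genes. The tilt to replicate 4 was thus present in both particles, but not in the beta ring or the lid.

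The median pooled signal was 50.2 at the 5 core genes with a region and 32.5 at the 7 regulatory genes, a difference of 17.7. The medians of each replicate are over its own genes with a region, so they cover other genes than the pooled medians. In replicate 3 the medians were 19.9 for 5 core genes and 21.7 for 8 regulatory genes, a difference of -1.8. In replicate 4 they were 19.9 for 8 core genes and 18 for 12 regulatory genes, a difference of 1.92. The replicates' differences thus had opposite signs, with an SD of 2.63 between them, and the pooled ranges overlapped (28.3 to 81.4 for core, 28.4 to 121 for regulatory genes). With as many regions as the pooled list holds taken from 1 replicate alone, the difference was 1.12 without replicate 3 and -5.24 without replicate 4. At members with a pooled region, replicate 3 signals overlapping it ran from 19.9 to 43.1 (core) and 14.7 to 35.5 (regulatory). In replicate 4 they ran from 14.9 to 39.2 (core) and 14.3 to 80.7 (regulatory), so the ranges overlapped in both. The medians above thus showed no difference between the particles that repeated in both replicates. Because their genes change from list to list, they do not compare the same genes across lists.

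At the 8 members with a region in both replicates, the signals followed each other. Their log2 ratios (replicate 3 over replicate 4) ran from -1.19 at rpn-7 to 0.18 at rpt-2, with -0.04 as the median and 0.46 as the SD (n = 8 genes), against 0.11 and 0.49 at all 3086 such genes. Across these 8 genes, Spearman's rho between the replicates was 0.95, and Pearson's r of the log2 signals was 0.84. Across the 3086 genes the values were 0.56 and 0.73. These are correlations across genes of the same 2 samples and describe those samples alone. The highest regions of the replicates overlapped at 6 of the 8 members (75%), all but pas-1 and rpt-1, against 2647 of 3086 genes (85.8%). At pas-1 and rpt-1 the ratios and correlations therefore pair different regions, so the values above are not agreement at the same sites alone.

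Replicate 4 accounted for more of the members' regions than replicate 3. A region of replicate 4 overlapped the pooled region at 11 of 12 members (91.7%), all but pbs-5, against 81.3% of the 4310 genes. A region of replicate 3 did so at 8 of 12 (66.7%), against 82% of the 4310 genes, and was missing at pas-3, pas-4, rpn-1 and rpn-3. Without replicate 3, using as many regions from replicate 4 as the pooled list holds, 18 members had a region, against 21.4% of all genes. Without replicate 4 the number was 10, against 20.6% of all genes. Core genes accounted for 8 of the 18 and 5 of the 10. The optimal regions divided likewise: rpn-7 alone was among the 595 highest regions of replicate 4, and pbs-3 alone among those of replicate 3. Whether the depth of the libraries has a part in this was not tested, since the lists give no read counts.

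**Figure D3:**
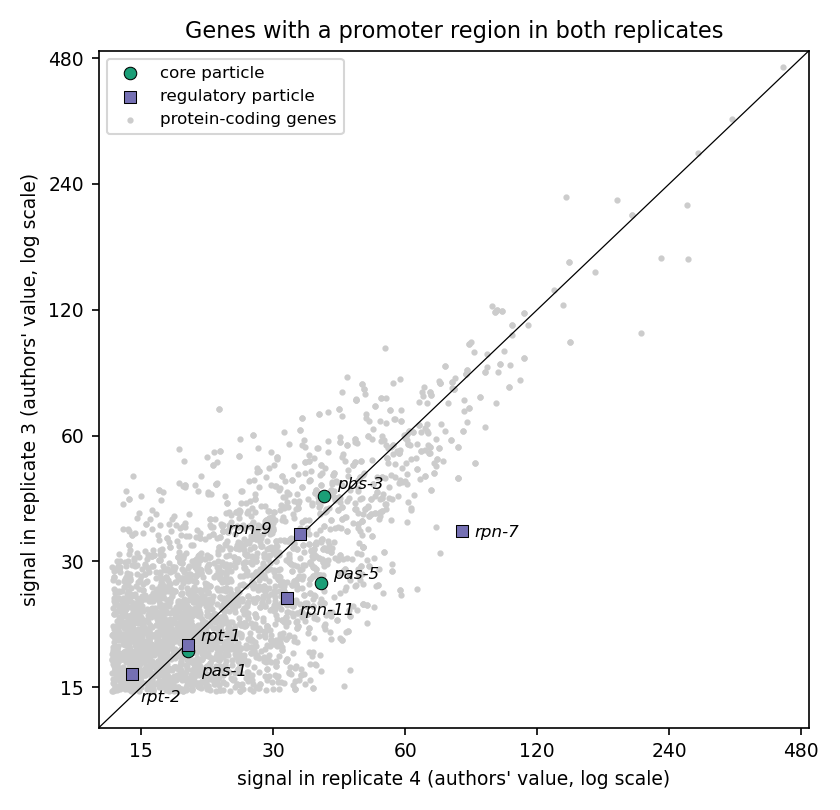
Signal in replicate 3 (vertical axis) against replicate 4 (horizontal axis), authors' values on log scales, for genes with a promoter region in both lists: 3 core and 5 regulatory genes over all 3086 protein-coding genes (grey), with the line of equal values. Most members lie near the line, while rpn-7, at 35.5 in replicate 3 and 80.7 in replicate 4, lies well below it.

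Pooled summits in the members' windows lay upstream of the gene, often in the promoter window of another gene too. All 12 pooled summits were upstream of the member's own 5' end, against 85.8% at the 4310 genes. In the replicate lists, summits lay downstream at pas-1 (+154), pbs-2 (+173), pbs-4 (+181), rpn-2 (+40) and rpt-2 (+6). Pooled summits downstream of pbs-2 and pbs-4 were left out only by the limit of 200 bp. For the 12 pooled regions, distances were as follows. The median distance was 211 bp (range 7 to 967), against 271.5 bp at all genes, and it was 220 bp at core and 202 bp at regulatory genes. The region lay in the promoter window of another protein-coding gene too at 7 of 12 members (58.3%), against 33% at all genes. This was the case at 2 of 5 core genes (pas-3 and pas-4) and 5 of 7 regulatory genes (rpn-1, rpn-3, rpn-7, rpn-9 and rpt-2). The nearest protein-coding 5' end was the member's own at 9 of 12 (75%), against 80.2% of all genes, the exceptions being pas-3, rpn-1 and rpn-7. With a region counted only where the nearest 5' end is the member's, 1 optimal region remained, that of pbs-3.

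**Figure D4:**
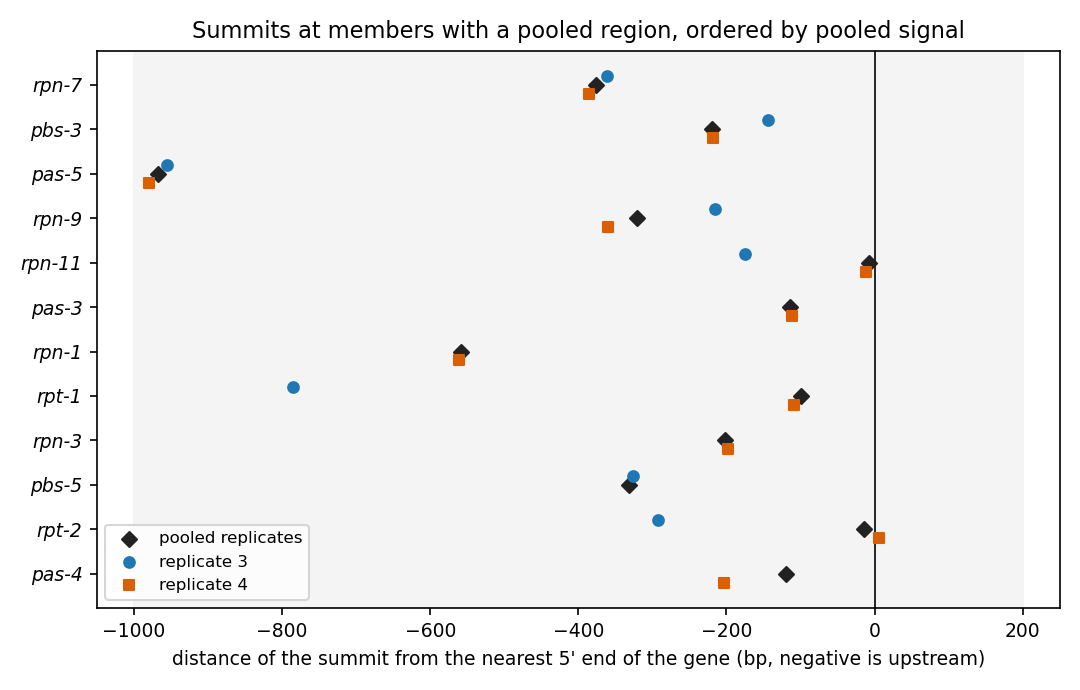
Distance of the summit of the highest region from the nearest 5' end of the gene (horizontal axis, bp, negative upstream) at the 12 members with a pooled region (vertical axis, ordered by pooled signal), in the pooled list, replicate 3 and replicate 4, with the promoter window shaded. Every pooled summit lies left of 0, and the summits of replicate 3 and replicate 4 at rpn-7 and pas-5 stand 24 bp apart, while those at rpt-1 stand 676 bp apart.

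The longer letters of the ETS motif were not found at the members' summits. CCGGAA, searched on both strands within 100 bp of the pooled summit, had 0 matches at 12 members, against 11.1% of the regions at 4310 genes. ACCGGAAG, which contains it, likewise had 0 matches, against 2.6%. The core GGAA alone, which is part of both, was found at 8 of 12 members (66.7%), against 86.7%. Within 50 bp it was found at 4 of 12 (33.3%), against 63.4%. The GC content of these windows had a median of 38.3% at the members and 40.3% at all genes. At 12 regions a share of 11.1% corresponds to few matches, and the absence of these letters says nothing on whether ETS-7 was bound.

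CCGGAA did occur elsewhere in the promoter windows, mostly inside genes. Over the whole window from 1000 bp upstream to 200 bp downstream of the most upstream 5' end, 9 of 33 members (27.3%) held it, against 33.4% of all genes. The share was 6 of 14 core genes (42.9%: pas-1, pbs-1, pbs-2, pbs-3, pbs-5 and pbs-7) and 3 of 19 regulatory genes (15.8%: rpn-9, rpn-11 and rpt-6). No match of a core gene lay between genes. At pbs-1, pbs-2, pbs-5 and pbs-7 it lay in the gene's own coding exon, and pbs-7 had another in a coding exon of F39H11.1. It lay in a coding exon of ulp-2 at pbs-3 and in an intron of rpoa-12 at pas-1. Only the match of rpt-6, at -956, lay between protein-coding genes. Among members with a pooled region 4 of 12 (33.3%) held it, near the 36.4% of all genes with a pooled region. Of members without one, 5 of 21 (23.8%) held it. At rpn-11 it is centred 101 bp from the summit, just beyond the window searched above and in the gene's own 5' UTR. It lies 388 bp from the summit at pbs-3, 401 bp at rpn-9 and 512 bp at pbs-5. ACCGGAAG was found at rpn-9 alone (3.03% of members), against 2.23% of all genes, in the 5' UTR of T06D8.9.

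Genes that work with the proteasome were counted in the same way. Of 13 genes of proteasome partners and regulators, 4 had a pooled region (30.8%, against 21.6% of all genes) and 1 an optimal one (7.69%, against 2.07%). That one, ecps-1, the orthologue of the human proteasome adaptor ECM29, had 120 in replicate 3, 97.3 in replicate 4 and 214 in the pooled list, higher than any subunit gene, although the summit lies 71 bp from the 5' end of atx-2 and its own 5' end is further off, with the summit at -767. The next were ubh-4, a proteasome-associated deubiquitinase gene (24.6 in replicate 3, 16.2 in replicate 4, 42.8 pooled), ubql-1, a ubiquilin gene (25.6 in replicate 4, 35.4 pooled, no region in replicate 3), and usp-14, another deubiquitinase gene (18.5, 15.9 and 35.2). dss-1, which encodes a further lid subunit that the symbol rule does not take, had no region in any list. Neither did skn-1, nor png-1 and ddi-1, whose products process SKN-1A.

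Of 20 ubiquitin and unfoldase genes, 12 (60%) had a pooled region, against 21.6% of all genes, with a median signal of 48.5, against 38.1. An optimal region stood at 2 (10%), against 2.07% of all genes. cdc-48.1, which encodes the p97 unfoldase, had 47.9 in replicate 3, 56.8 in replicate 4 and 104 in the pooled list, at -162. ufd-2, a ubiquitin chain elongation factor gene, had 39.2 in replicate 3, 46.9 in replicate 4 and 85.4 in the pooled list, at -353. Both have the nearest 5' end to their region. The next highest pooled signals were 73.2 at ufd-3, 63.8 at cdc-48.2 and 56.7 at ubq-2. The cdc-48.2 region, at -820, is shared with ctns-1, whose 5' end is nearer (758 bp). It had 45.6 in replicate 3 and 19.9 in replicate 4. The ubq-2 region, at -448, is shared with frg-1, whose 5' end is nearer (191 bp). Of the 7 annotated genes in the list of the COP9 signalosome, a complex that resembles the lid in subunit make-up, 1 (14.3%) had a pooled region, against 21.6% of all genes: csn-5, which encodes its deneddylase subunit, with 21.5 in replicate 3, 21.0 in replicate 4 and 43 in the pooled list.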

How the data were processed

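ETS-7-GFP ChIP-seq was analysed from lists of regions in 2 replicates of 1 group. Per the sample descriptions, the authors called regions with a control as comparison, per replicate and on pooled replicates, and derived the optimal list by IDR analysis. Each region was described by its deposited signal and its summit. The aligner, the peak caller and the scale of the signal are not stated by the labels or file descriptions. Without read counts in the lists, the depth of each sample is unknown. The only error available is the spread between the replicates, which may be technical. The 4 lists on the ce11 build were used, and the 4 on ce10 were not used here.

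Transcript 5' ends came from Ensembl release 115 and sequence from the RefSeq genome, both of WBcel235, the same assembly as ce11. Positions are 1-based. Tables were made with Python 3.11.15, NumPy 2.4.6, pandas 2.3.3 and SciPy 1.17.1, and figures with matplotlib 3.10.9. The assignment of regions to genes and the motif search were checked on simulated data. Members were described by counts, medians and ranges beside all 19985 protein-coding genes, with no test over genes. All members are named. Related genes are named where they have an optimal region or are among the 3 highest of the others in their list, or, chosen after their values were seen, for their role (dss-1, skn-1, png-1 and ddi-1). Neighbouring genes are named where they hold a summit or share a region. The members, the gene lists and the settings were chosen with earlier results of these data known.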

Additional observations from a re-analysis of the deposited data

How the results depend on the processing

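The counts depended on the window and the threshold, and so did the share of all genes. The 12 members with a pooled region became 6 in the upper part of that list by signal (3 core and 3 regulatory genes; 13.2% of all genes), and 10 to 18 under the other settings (14.8% to 31.7% of all genes). The 2 with an optimal region became 4 with a window of 2000 bp upstream to 500 bp downstream, 1 where the nearest 5' end had to be the member's, 1 in the upper part of the optimal list, and 1 when replicate 3 or replicate 4 was left out (rpn-7 without replicate 3, pbs-3 without replicate 4). With a list 2 times as long, a setting chosen after seeing the data, they became 3. Over these settings the share of all genes ran from 1.04% to 3.87%. The 8 with a region in both replicates became 15 with the longer window and 5 by the nearest 5' end. Core genes with a pooled region numbered 8 with the longer window and 5 to 8 without 1 replicate.

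The pooled difference in median signal, core minus regulatory, of 17.7 turned to -5.93 with a window of 500 bp upstream to 100 bp downstream, and ran from -5.24 to 1.12 without 1 replicate. It was 6.98 without regions near small RNA genes, 5.66 by the nearest 5' end and 7.21 in the upper part of the list. It was 20.2 with the longer window, and stayed at 17.7 by overlap and by the most upstream 5' end. The causes were not tested. No paired analysis was possible because there is only 1 group. Depth is unknown, and a region absent from a list may be one that did not reach its lowest signal.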

Other observations

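Beyond the promoter window, rpt-6, an ATPase ring gene with a single weak promoter region, had pooled regions of signal 50.7 at -1457 and 59.5 at -1757. Both lie in an intron of the histone gene his-72, with a small RNA gene 455 bp and 155 bp from the summit. At rpn-5, with no region in the window of any list, pooled regions of signal 38.2 and 43.4 stood at -1739 and -1959 in a coding exon of scc-1, which encodes a cohesin subunit.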
